A study of Mus musculus with 2 samples.

Results

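The genes described here serve the unfolded protein response and the integrated stress response, and they were read on 1 Affymetrix array of mouse marrow cells cultured together with ID8 tumour cells. The list held 32 genes in 4 roles, of 18193 genes that the array named: 9 sensors, transcription factors and phosphatase subunits, 14 chaperones and folding enzymes of the endoplasmic reticulum (ER), 4 genes of ER-associated degradation and 5 genes of the amino acid response. A probe set, the group of short probes that reports 1 transcript, was used only if the platform annotation gave it a member as its sole gene symbol, and each of the 32 genes had at least 1 such probe set, 73 in all. Marrow came from the femurs of C57BL/6 mice. In that sample the tumour cells (ID8, an ovarian surface epithelial tumour line that the labels also spell 1D8) occupied the upper chamber of a transwell for 4 days, with the marrow cells below, although the title given to the sample speaks of supernatant. Per the labels the product was CD11b+Gr1+ MDSC, that is, myeloid-derived suppressor cells, immature cells of the myeloid lineage that can suppress T cells. The other sample was control bone marrow, given the same CD11b+Gr1+ phenotype in the labels, with no statement of its time in culture or of how many mice contributed to either sample.

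No value below measures a response to the tumour cells. The control signals were in descending order down the probe set list, in interleaved sequences with 0 rises among the values at or above the last value and 0 among those below it (10622 and 11804 rises in the ID8-induced column), so they were not tied to genes and no fold change was computed. Each group held 1 array, which leaves no replicate error, no test and no p-value, and the number of arrays limits the precision of every signal. Of the antigens in the label, Itgam, which encodes CD11b, read 2374.74, at the 97.4 percentile of the array. The other measured myeloid markers were higher still on that scale: S100a9 read 24856.67, S100a8 20545.25, Csf3r 3346.5 and Cxcr2 2568.71. Ly6g, Ly6c1 and Ly6c2, which encode the antigens of Gr1 antibodies, were not analysed here, as no probe set named any of them alone.

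Misfolded protein in the ER activates 3 membrane sensors, PERK, IRE1 and ATF6. PERK phosphorylates the initiation factor eIF2 and so slows translation while favouring that of ATF4; the kinase GCN2 does the same when amino acids run short, and the shared output is called the integrated stress response. IRE1 splices the mRNA of XBP1, and ATF6 is cut to release a transcription factor; together they raise chaperones and degradation genes, while ATF4 raises genes of amino acid supply. In myeloid cells these pathways are known to accompany high secretory load and life in tumours. Phosphorylation, splicing and cleavage are not read by an expression array of this kind, so the signals describe the mRNA of the pathway and not its activity.

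The promoters of several of these genes are textbook targets of the factors just named, and the elements are shown because their search used no signal. No element is read here as the mark of a single arm. RefSeq promoters (GRCm38.p6, 250 bases before to 50 after the start site) were matched for 28 of the 32 members; Atf6, Hyou1, Manf and Ppp1r15b had no entry. The motif searched first was the ER stress element, CCAAT followed after 9 bases of any kind by CCACG, which ATF6 binds with the factor NF-Y; both strands were searched, here and for the elements that follow. It was present in the promoters of 8 of 28 members, against 0.137% of the 27025 genes with a promoter. By role, it occurred in 7 of 12 chaperone and folding genes, 1 of 4 degradation genes, 0 of 7 sensor genes and 0 of 5 amino acid response genes. The members were listed for roles known from such studies, so the excess describes the list and is not a result of the array. In the lines that follow the fixed letters of the motif are in capitals with up to 10 bases on each side, written 5′ to 3′ on the gene's own strand, and the coordinates and the position of the first base relative to the start site are those of the motif.
Hspa5 (chr2:34772025-34772043, position -65): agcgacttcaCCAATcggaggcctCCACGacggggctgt
Hsp90b1 (chr10:86705638-86705656, position -212): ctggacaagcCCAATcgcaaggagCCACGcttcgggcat
Hsp90b1 (chr10:86705533-86705551, position -107): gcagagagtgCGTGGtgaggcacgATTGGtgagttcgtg
Canx (chr11:50325800-50325818, position -145): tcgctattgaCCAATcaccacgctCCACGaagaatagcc
Calr (chr8:84847075-84847093, position -162): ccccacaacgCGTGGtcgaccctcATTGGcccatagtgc
Creld2 (chr15:88819520-88819538, position -126): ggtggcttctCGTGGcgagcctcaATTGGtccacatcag
Dnajc3 (chr14:118937827-118937845, position -105): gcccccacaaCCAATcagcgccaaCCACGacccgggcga
Pdia6 (chr12:17266491-17266509, position -98): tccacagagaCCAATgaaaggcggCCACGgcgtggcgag
Syvn1 (chr19:6046532-6046550, position -44): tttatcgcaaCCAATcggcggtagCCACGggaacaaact
Hsp90b1 carried 2 copies, and in the copy nearer the start site, as in Calr and Creld2, the motif lay on the opposite strand, so that it reads from CGTGG to ATTGG. With 1 mismatch allowed the element was found in 12 of 28 members, Herpud1, Pdia3, Pdia4 and Sel1l being added, and in 1.72% of all genes.

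The whole Hspa5 promoter, with its exact ER stress element in capitals, is given because Hspa5 is the reference target of the response (chr2:34771840-34772139, + strand).
Hspa5 promoter: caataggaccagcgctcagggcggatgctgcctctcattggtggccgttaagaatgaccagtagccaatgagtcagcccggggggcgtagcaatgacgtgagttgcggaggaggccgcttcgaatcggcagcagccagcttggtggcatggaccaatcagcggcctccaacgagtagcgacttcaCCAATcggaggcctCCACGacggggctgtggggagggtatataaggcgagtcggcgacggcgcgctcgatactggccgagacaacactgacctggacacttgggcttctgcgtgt

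The other elements were found in fewer members. The ER stress element II, ATTGG followed after 1 base of any kind by CCACG, stood in 2 of 28 member promoters (0.0444% of all genes), those of Herpud1 and Dnajb11.
Herpud1 (chr8:94386377-94386387, position -52): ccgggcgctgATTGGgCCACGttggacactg
Dnajb11 (chr16:22857852-22857862, position 8): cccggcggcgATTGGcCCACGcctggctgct
The core of the amino acid response element, TGATGNAA, to which ATF4 binds with a C/EBP partner, stood in 4 of 28 (4.51% of all genes). These were 3 of the 5 amino acid response genes, Asns, Trib3 and Chac1, and the degradation gene Herpud1.
Asns (chr6:7693225-7693232, position -23): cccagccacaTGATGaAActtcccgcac
Trib3 (chr2:152344039-152344046, position 15): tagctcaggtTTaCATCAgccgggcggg
Chac1 (chr2:119351049-119351056, position -193): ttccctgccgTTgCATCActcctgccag
Herpud1 (chr8:94386317-94386324, position -112): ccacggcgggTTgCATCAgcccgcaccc
The cyclic AMP response element (CRE), TGACGTCA, stood in 1 of 28 (2.03% of all genes), the promoter of Ppp1r15a.
Ppp1r15a (chr7:45526273-45526280, position -12): gcctctccggTGACGTCAgcacagcgcc
The unfolded protein response element TGACGTGG stood in 0 of 28 (0.714% of all genes). No printed sites of a gene overlapped each other, a match is a string of letters and not a bound site, and elements can lie outside these windows.

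**Figure D1:**
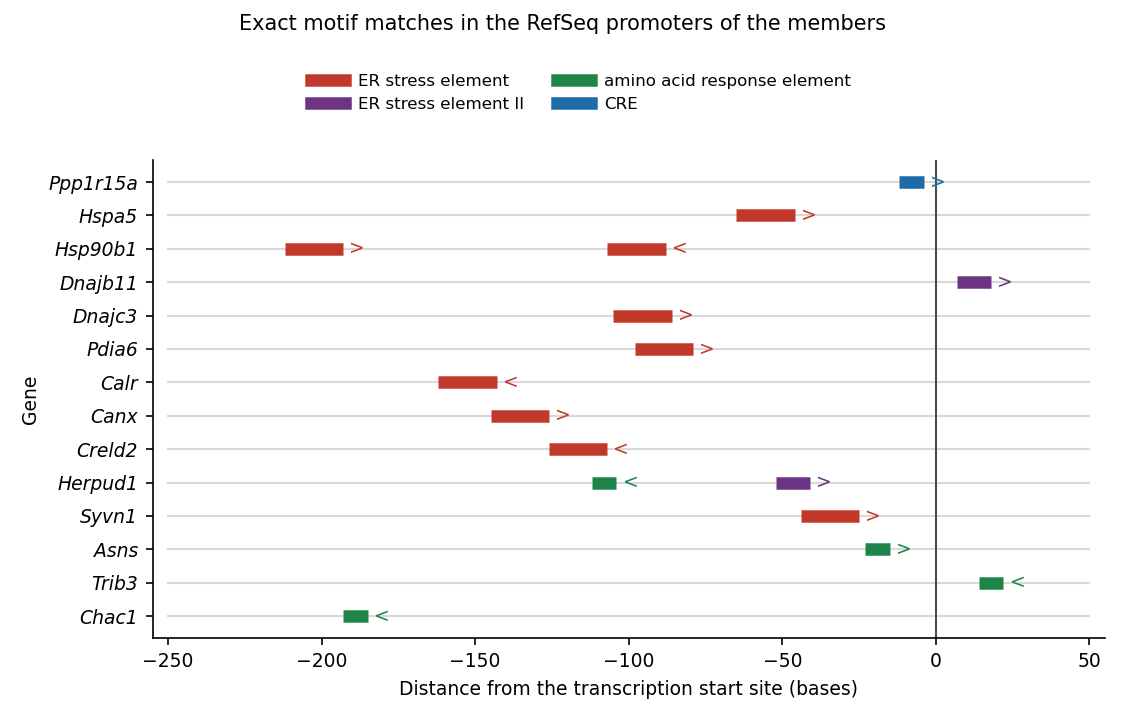
Exact motif matches in member promoters, drawn from 250 bases before to 50 bases after the transcription start site (horizontal axis, bases), 1 line per gene; bar length is the length of the motif and the arrowhead gives its strand. The ER stress element starts between positions -212 and -44 in chaperone and degradation genes. The ER stress element II starts at -52 in Herpud1 and at 8 in Dnajb11, and the amino acid response core marks Asns, Trib3, Chac1 and Herpud1.

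All 32 genes gave a brightest probe set above 68.77, the 40th percentile of the array, which was used as a floor because no detection calls were among the files used here. Of all genes 71.3% passed that floor. At or above the 90th percentile (a signal of 619.81) lay 17 of the 32 genes, against 14.8% of all genes, and 1 of the 32 lay at or above the 99th (4651.03), against 1.39%. The median percentile of the 32, each percentile being the part of the array's 45037 probe sets that read lower, was 91 beside 61.4 for all genes. A percentile places a signal on this array; it does not order transcripts by abundance, because probe sets differ in how efficiently they capture their targets.

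**Figure D2:**
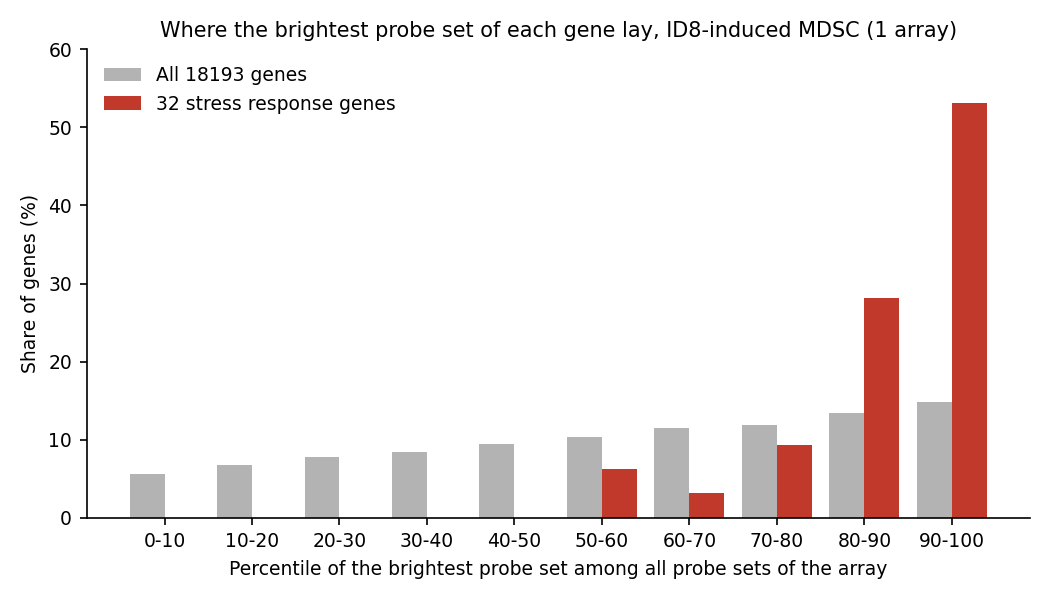
Share of genes (vertical axis, percent) by the percentile of their brightest probe set (horizontal axis, bins of 10), for the 32 members and for all 18193 genes of the ID8-induced array. Of the members 53.1% fall in the top bin and 0% in the bins under 50, while all genes spread from 5.67% in the lowest bin to 14.8% in the highest.

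Taking the brightest of several probe sets raises a gene's signal, and 23 of the 32 members had more than 1, beside 9010 of all 18193 genes. Of all genes with several probe sets 85.2% passed the floor and 21% reached the 90th percentile, as did 14 of the 23 members. Of all genes with 1 probe set 8.7% reached it, as did 3 of 9 members. Counted as probe sets, with no choice among them, 68 of 73 lay above the floor (63.5% of the 34945 probe sets with 1 gene symbol) and 28 of 73 at or above the 90th percentile (11.3%). The counts at the 90th percentile moved with the rule for several probe sets: with each gene's probe sets averaged on the log2 scale, 11 of 32 members and 8.61% of all genes reached it, and with the dimmest probe set 8 of 32 and 6.46%. Under each of these rules the members' share was above that of all genes, with no test of the difference.

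**Figure D3:**
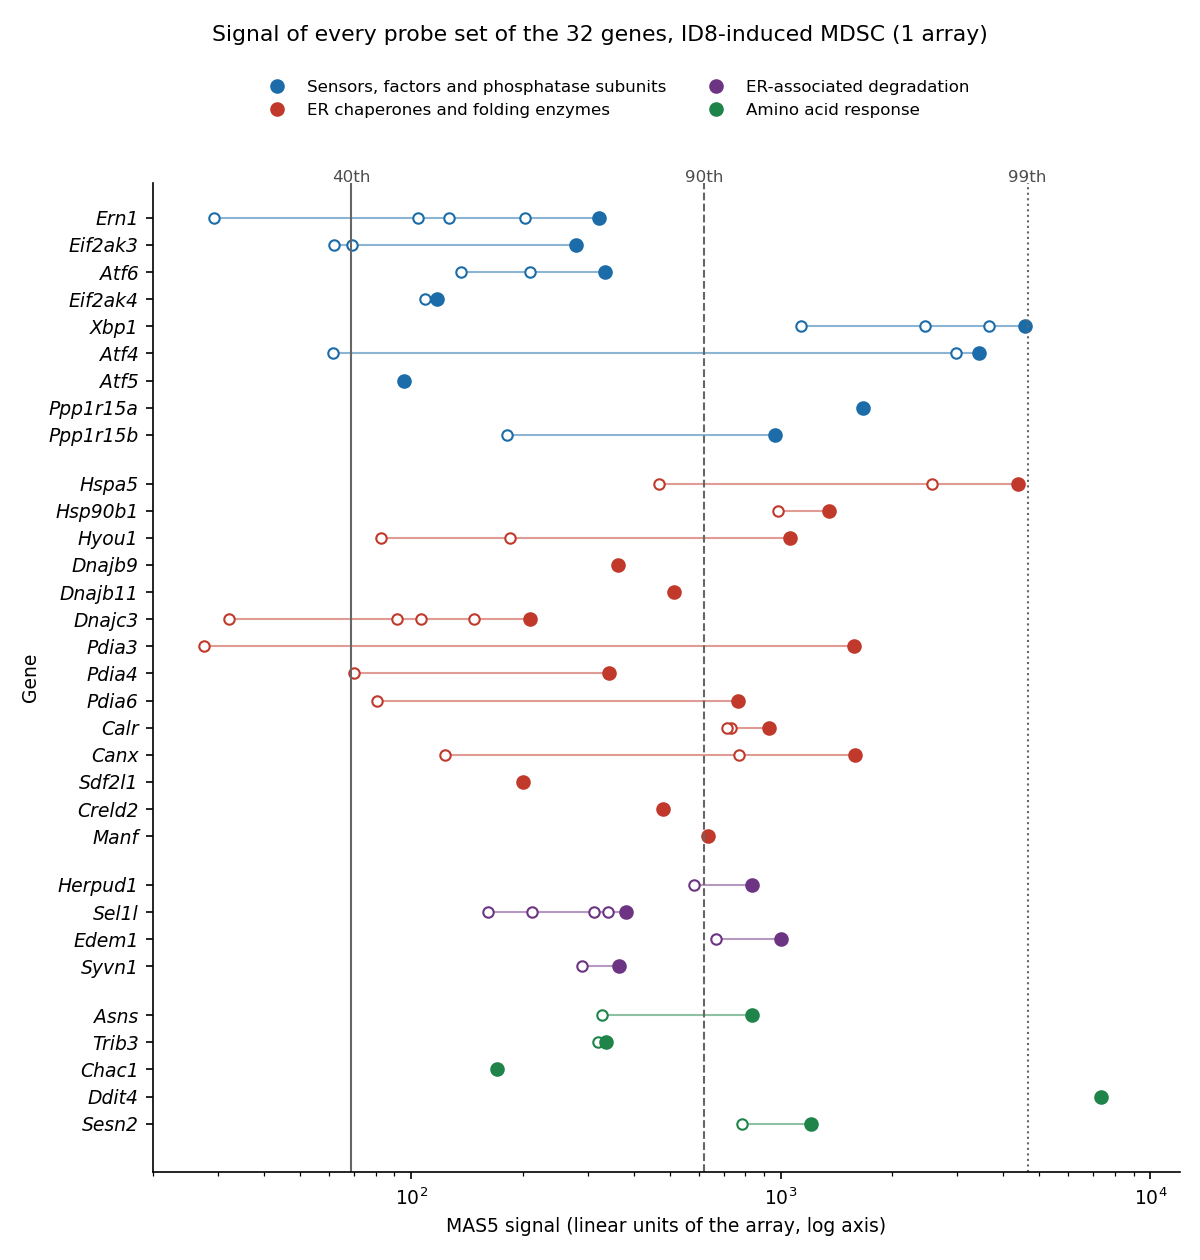
Signal of each of the 73 probe sets (horizontal axis, MAS5 signal, log axis) for the 32 genes (vertical axis), coloured by role; the filled point is the brightest probe set of a gene and open points are its others. Vertical lines mark the 40th, 90th and 99th percentiles of the array, and Ddit4 is the gene to the right of the 99th.

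The mRNAs of the sensors themselves read in the middle to upper range of the array. Ern1, which encodes IRE1, read 322.69, 203.07, 126.12, 104.41 and 29.33 on its 5 probe sets. Atf6 read 334.56, 209.05 and 136.03 on 3. Eif2ak3, which encodes PERK, read 278.21 on 1 probe set and 68.95 and 61.77 on its others. By their brightest probe sets these 3 ER sensors lay at percentiles from 79.97 to 82.92. The place of Eif2ak3 rested on 1 probe set, since the next read just above the floor and the last below it. Eif2ak4, which encodes GCN2, the sensor of uncharged tRNA, read 117.31 and 108.83, so its probe sets lay close together at the 59.3 and 56.9 percentiles.

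The transcription factor mRNAs downstream of the sensors divided into strong and weak. Xbp1, the substrate of IRE1, read 4583.33, 3652.26, 2456.15 and 1131.85, and each of its 4 probe sets lay above the 90th percentile. Atf4, the effector of eIF2 phosphorylation, read 3433.93 and 2975.18 on probe sets at the 98.4 and 98.1 percentiles. The remaining Atf4 probe set read 61.35, below the floor, a 56-fold gap to the brightest. Atf5, a relative of ATF4 that is itself translated under eIF2 phosphorylation, had 1 probe set, which read 95.66 at the 52.3 percentile and was the lowest brightest signal of the 32 genes. Xbp1 and Atf4 thus had more than 1 strong probe set each, and Atf5 a single one near the middle of the array.

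The eIF2 phosphatase subunits close the feedback loop by restoring translation. Ppp1r15a, which encodes the stress-induced subunit GADD34, read 1665.22 on its only probe set, at the 96.2 percentile. Ppp1r15b, the constitutive counterpart CReP, read 963.53 and 180.92, and these probe sets stood on either side of the 90th percentile. Of the 9 genes of this role, 4 reached the 90th percentile (Xbp1, Atf4, Ppp1r15a and Ppp1r15b), beside 14.8% of all genes. By the dimmest probe set 2 of 9 did, beside 6.46%. The median percentile of the 9 was 82.9 (56.9 with the dimmest probe set of each gene, beside 39.7 for all genes).

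The chaperones and folding enzymes were the largest group, and 8 of its 14 genes reached the 90th percentile, beside 14.8% of all genes. After averaging probe sets 4 did (8.61% of all genes), and by the dimmest 3 did (6.46%). Hspa5 encodes BiP, the ER member of the Hsp70 family and the brake on the sensors. It read 4392.43, 2558.7 and 467.38, and the first of these probe sets lay at the 98.9 percentile. Hsp90b1, which encodes the ER Hsp90 protein GRP94, read 1350.4 and 982.9, both above the 90th percentile. The nucleotide exchange factor gene Hyou1 (GRP170) read 1057.06, 185.45 and 82.65. Its brightest probe set carries the suffix letter s, which Affymetrix gives to probes that match transcripts of more than 1 gene, and it was the only Hyou1 probe set above the 90th percentile. Hspa5, Hsp90b1 and Calr, like Trib3 and Atf5 in other roles, had only probe sets with a suffix letter.

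The J-domain cochaperones of BiP, which hand it clients and stimulate its ATPase, lay between the 74.7 and 88.2 percentiles. Dnajb9 (ERdj4) read 362.56 on its single probe set and Dnajb11 (ERdj3) read 512.65 on its single probe set, at the 84 and 88.2 percentiles. Dnajc3 encodes P58IPK, a cochaperone also described as an inhibitor of PERK. It read 209.81, 147.7, 105.89, 91.65 and 32.18, and 1 of its 5 probe sets lay below the floor. None of the 3 cochaperone genes reached the 90th percentile.

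The lectin chaperones of glycoprotein folding gave strong signals. Calr (calreticulin) read 925.6, 734.68 and 713.38, and its probe sets agreed within 1.3 times. Canx (calnexin) read 1581.71, 772.05 and 123.39, the first being an s-suffix probe set and the last lying at the 60.9 percentile. The protein disulfide isomerase that works with both, Pdia3 (ERp57), read 1578.83 and 27.55, a ratio of 57.3 and the widest disagreement among the members. Pdia6 (P5) read 763.23 and 80.76, and Pdia4 (ERp72) read 342.88 and 69.86. Each of these 3 isomerase genes thus had a probe set at or above the 83.2 percentile and another below or near the floor.

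The small secreted or luminal proteins of the response each had 1 probe set. Manf, an ER-resident factor released under stress, read 636.8 at the 90.3 percentile. Creld2, another luminal protein that rises in ER stress, read 479.92. Sdf2l1, a partner of the BiP and ERdj3 complex, read 200.02 at the 73.7 percentile, the lowest of the 14 genes. Over this role the median percentile was 91, and the probe sets counted without any choice gave 28 of 30 above the floor and 13 of 30 at or above the 90th percentile. The shares of all probe sets with 1 gene symbol were 63.5% and 11.3%.

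ER-associated degradation, which returns misfolded proteins to the cytosol for the proteasome, had no probe set below the floor. Herpud1, a membrane adaptor of the degradation complex, read 837.32 and 580.5. Edem1, a lectin-like protein that marks glycoproteins for disposal, read 1000.2 and 665.8. Syvn1, the ubiquitin ligase HRD1, read 364.72 and 290.16. Its partner Sel1l read 380.72, 339.9, 311.6, 211.55 and 160.83. The 11 probe sets of these 4 genes all passed it, and the widest ratio of brightest to dimmest, that of Sel1l, was 2.37. Herpud1 and Edem1 reached the 90th percentile (1 of 4 by the dimmest probe set), and the median of the 4 was 88.6. Of all genes 14.8% reached it (6.46% by the dimmest), and of all probe sets with 1 gene symbol 63.5% passed the floor.

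The amino acid response genes held both the strongest signal of the 32 and some of the weaker ones. Ddit4 encodes REDD1, an inhibitor of mTORC1 that responds to hypoxia and glucocorticoids as well as to ATF4. It read 7347.38 at the 99.6 percentile on its only probe set, which leaves no other reading to set beside it. Sesn2 (sestrin 2), which restrains mTORC1 when leucine is scarce, read 1204.58 and 786.64, both above the 90th percentile. Asns, the asparagine synthetase, read 835.83 and 327.37. Trib3, a pseudokinase induced by ATF4 and CHOP that damps ATF4, read 337.01 and 320.27, at the 83 and 82.3 percentiles. Chac1, a glutathione-degrading enzyme also induced by ATF4, read 170.53 on its only probe set, at the 69.9 percentile. In this role 3 of 5 genes reached the 90th percentile, beside 14.8% of all genes. After averaging probe sets 2 did (8.61% of all genes), and by the dimmest 2 did (6.46%). The median percentile was 92.4, beside 61.4 for all genes. The 8 probe sets all lay above the floor, as did 63.5% of all probe sets with 1 gene symbol.

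Disagreement between probe sets of a gene was the internal check that the values used here allowed, and it was considerable for members and for all genes. Among the 23 members with several probe sets the median ratio of brightest to dimmest was 4.05, beside 3.01 for all 9010 such genes. It exceeded 5 for 9 of the 23, which is 39.1%, beside 31.5% of all such genes. For 5 of the 23 (Ern1, Eif2ak3, Atf4, Dnajc3 and Pdia3) the floor separated the brightest from the dimmest probe set, a share of 21.7% beside 43.7%. The remaining members with several probe sets stayed above the floor on each of them, but their signals also varied with the probe set: the ratio was 12.8 for Canx and for Hyou1, 9.45 for Pdia6, 9.4 for Hspa5 and 5.33 for Ppp1r15b.

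Related genes that are not members were read from 8 further lists. Beside the counts for these lists, 71.3% of all genes passed the floor and 14.8% reached the 90th percentile. After averaging probe sets 8.61% of all genes reached it, and by the dimmest 6.46%. Other signalling genes of these pathways passed the floor in 23 of 25 cases, with a median percentile of 81.2. Atf3, a stress-induced repressor downstream of ATF4, read 3571.97, Tmbim6, an ER membrane protein that restrains IRE1, read 2125.67, and Ddit3, which encodes CHOP, read 1909.71. Ern2, an IRE1 paralogue of epithelia, and Creb3l4, a relative of ATF6, lay below the floor at 38.87 and 52.96.

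The wider folding and secretory machinery was mostly above the floor. Other ER folding genes passed the floor in 32 of 35 cases, 11 at or above the 90th percentile (7 after averaging probe sets and 6 by the dimmest). Ero1a, the oxidase that recharges disulfide isomerases and a hypoxia target, read 12874.93, P4hb (protein disulfide isomerase) 7160.52 and Qsox1 6342.57, the last with 19.28 on its dimmest probe set. Fkbp7, Uggt2 and Rcn1 lay below the floor at 66.64, 57.63 and 47.97. Other ER degradation genes passed in 27 of 27 cases, led by Selenok at 2443.88, Ubxn4 at 2246.39 and the channel subunit Derl1 at 1510.53. Genes of entry into the ER, glycosylation and export passed in 30 of 30, with 20 at or above the 90th percentile (10 after averaging probe sets and 9 by the dimmest); Kdelr2, a receptor that retrieves ER proteins, read 3124.41, Ssr3 2631.72 and Sec61b, a subunit of the translocation channel, 2001.67.

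Other targets of the amino acid response were mixed. They passed the floor in 28 of 31 cases with a median percentile of 79.2. Cebpb, a C/EBP factor that pairs with ATF4, read 10975.43, Eif4ebp1, a brake on translation, 4362.38 and Gadd45a 3998.73. Psph of serine synthesis, the hormone gene Fgf21 and Cth of cysteine synthesis lay below the floor at 63.1, 42.91 and 29.05. The list of aminoacyl-tRNA synthetases, many of them ATF4 targets, also held Xpot, which encodes a tRNA export receptor and read 396.28. It passed in 20 of 20, and 2 of 20 (10%) reached the 90th percentile (1 by the dimmest probe set), beside 14.8% of all genes; the strongest signals were those of Sars1 at 1316.93, Nars1 at 762.36 and Farsa at 430.04.

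Chaperones outside the ER give a reference for the ER group. Cytosolic chaperones passed the floor in 24 of 24 cases, and 17 reached the 90th percentile (10 after averaging probe sets and 7 by the dimmest), with a median percentile of 93.1 beside 91 for the ER members. Hspa1b, the inducible Hsp70, read 9363.22, Hsp90aa1 6833.58 (22.91 on its dimmest probe set) and Hspa8 5396.19. Mitochondrial chaperones passed in 9 of 9, with Grpel1 at 970.44, Hspd1 at 902.29 and Hspe1 at 808.27, and 3 of 9 reached the 90th percentile. The cytosolic and ER lists were thus both high on the array, and no test sets them apart.

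**Figure D4:**
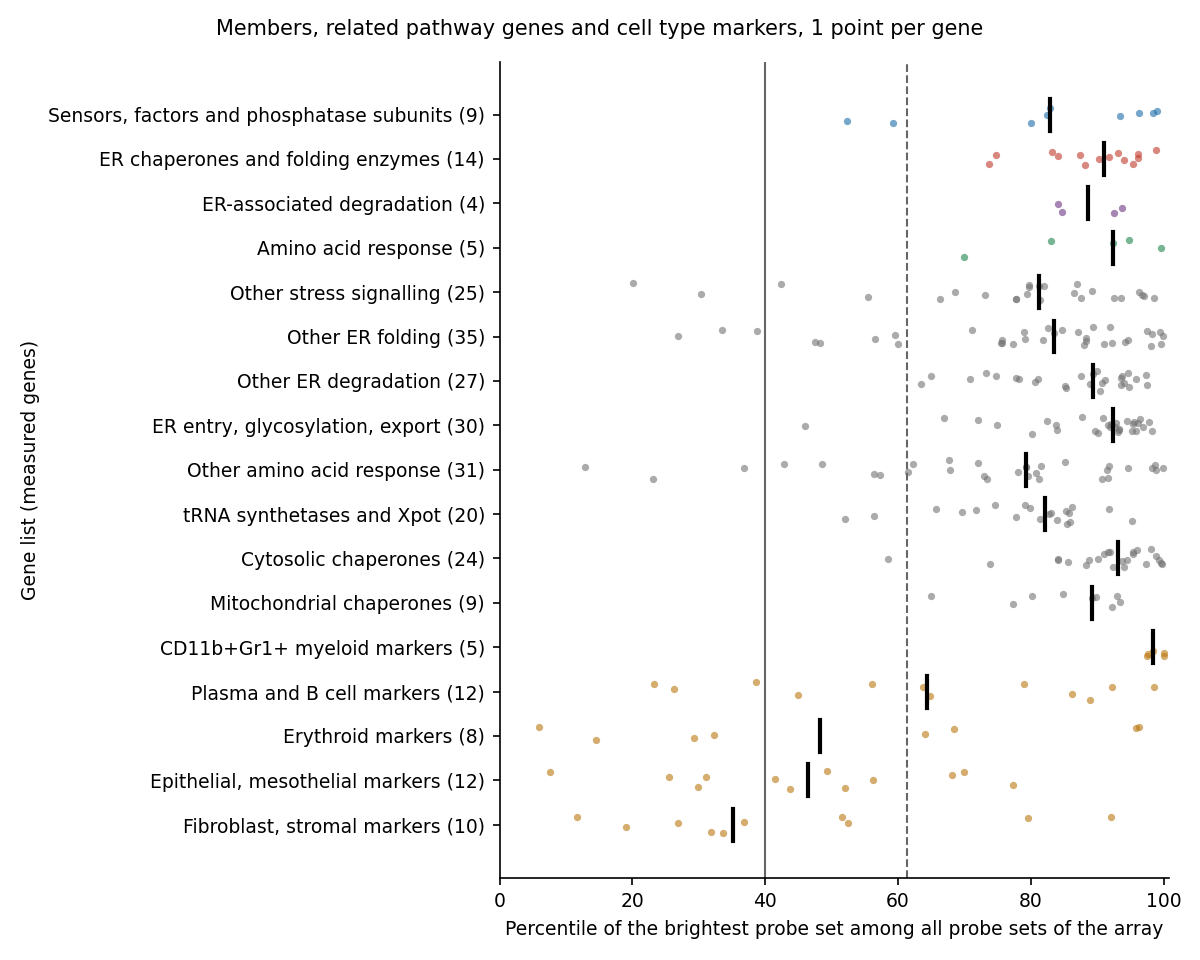
Percentile of the brightest probe set (horizontal axis) for each gene of the 4 member roles, of 8 related pathway lists and of 5 cell type marker lists, with the number of measured genes in parentheses; black ticks are list medians, the solid line is the floor at 40 and the dashed line the median of all genes, 61.4. Member medians lie between 82.9 and 92.4, and those of the 8 related pathway lists between 79.2 and 93.1. The CD11b+Gr1+ myeloid markers have a median of 98.3, and the 4 marker lists of other cells lie between 35.2 and 64.3.

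The sample was a bulk population, in which more cells of a type and more RNA per cell cannot be told apart. Plasma cells carry much ER and high levels of many of these mRNAs, and markers of plasma and B cells passed the floor in 9 of 12 cases (75%, beside 71.3% of all genes), with a summed signal of 6268 and none at 0. The 11 probe sets of Ighm ranged from 36.6 to 3593.33, and Pou2af1 read 812.46. Of the markers more particular to plasma cells, Sdc1 read 552.82, Mzb1 430.82 and Irf4 106, all above the floor, while Prdm1, Jchain and Tnfrsf17 lay below it at 66.28, 47.08 and 43.13. Erythroid markers passed in 4 of 8 (50%, summed signal 3624), with Alas2 at 1693.14 and Tfrc at 1476.15. Hba-a1, Klf1, Car1 and Rhag lay below the floor at 51.32, 55.94, 31.2 and 18.7. Markers of epithelium and mesothelium, the likely lineage of ID8 cells, passed in 8 of 12 (66.7%, summed signal 1179), with Cldn3 at 239.17 and Upk1b at 170.48. Fibroblast and stromal markers passed in 4 of 10 (40%, summed signal 1539), with Acta2 at 790.11 and Col1a1 at 270.02. The dimmest probe sets of Acta2 and Col1a1 read 46.17 and 34.71. Col3a1, Pdgfrb, Pdgfra, Dcn, Lum and Thy1 lay below the floor, between 27.44 and 63.03. The CD11b+Gr1+ list passed in 5 of 5 with a summed signal of 53690. S100a9 at 24856.67 and S100a8 at 20545.25 made up most of that sum, as Ighm did of the plasma and B cell sum. The lists differ in size, and the sums do not measure shares of cells. The part of other cells in the signals of the 32 genes was not tested.

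The signal and the promoter letters can be set side by side without a test. Of the 14452 genes of the array that had a promoter, 20 held an exact ER stress element, and 8 of these were members. By their brightest probe sets the 8 members read between the 74.7 percentile (Dnajc3) and the 98.9 percentile (Hspa5), and 5 of them reached the 90th. By the dimmest probe set only Hsp90b1 and Calr did, at 93.52 and 91.22. Hspa5, Canx, Pdia6 and Dnajc3 then lay at 87.15, 60.86, 46.19 and 15.06. The other 12 genes had a median percentile of 56.2, and 0 of 12 reached the 90th (15.3% of all array genes with a promoter). Above that median were the degradation gene Derl3 at 141.4, the glycosylation gene Alg12 at 170 and the ER oxidase gene Ero1b at 463.5. Their percentiles were 64.9, 69.8 and 87.1. Also above that median were Pan2, Zfp57 and Spats2l, at the 84.8, 64.4 and 59.6 percentiles. The members were chosen for known roles and with earlier results known, so the contrast describes the list.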

How the data were processed

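RNA was labelled as biotinylated cRNA and hybridised to 1 Affymetrix array per sample, per the labels' protocols. Each of 45037 probe sets has a deposited intensity per array, a linear signal made with MAS5 per the submitters' processing notes. MAS5's version and scaling target, and any detection calls, were not given in the sources used here. Intensity was used as deposited, without rescaling. The platform annotation named 34945 probe sets with 1 gene symbol, 932 with several and 9160 with none; the latter kinds were left out. A gene's signal was that of its brightest probe set, and every probe set of a member is given. In the lists, 16 tRNA synthetases were matched by an older symbol. The floor was the 40th percentile of the ID8-induced array. Named genes were all members and the 3 strongest of each pathway list with up to 3 below the floor. Of the marker lists they were the 2 strongest and each measured myeloid marker. Derl3, Alg12, Ero1b, Pan2, Zfp57, Spats2l, Xpot and the remaining plasma cell markers were added after their values were seen. So were the erythroid, epithelial and stromal markers below the floor. Members and lists were chosen with earlier results of these data known. Motifs were matched in RefSeq promoters (GRCm38.p6). The percentile code was checked by raising the signals of chosen genes on the real array, and the motif search by planting motifs in made sequences. Such checks test the code and not the results. Alternatives were the mean log2 signal or the dimmest probe set in place of the brightest, a floor at percentile 20 or 60, probe sets without a suffix letter, and 1 mismatch in the ER stress element. The count of probe sets in place of genes was added after seeing the data. Software was matplotlib 3.10.9, pandas 2.3.3, numpy 2.4.6 and Python 3.11.15.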

Additional observations from a re-analysis of the deposited data

How the results depend on the processing

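With 1 array per group, leaving out a replicate was not possible, and no paired analysis was possible because neither group has a second sample. The number of members above the floor was 32 with the floor at the 20th percentile or with the mean log2 signal over probe sets, 30 with the floor at the 60th percentile (Eif2ak4 and Atf5 falling below it), 27 with the dimmest probe set, and 27 of the 27 members that had a probe set without a suffix letter. Of all genes 87.53% passed with the floor at the 20th percentile and 51.63% with it at the 60th. With the mean 62.45% passed, and with the dimmest probe set 49.67%. Of all genes with a probe set without a suffix letter 68.02% passed. Counts above the floor moved by at most 1.5 times for each role and list under these alternatives. The number of members at or above the 90th percentile moved from 17 to 11 with the mean and to 8 with the dimmest probe set. Of all genes 14.8% reached it by the brightest probe set, 8.61% with the mean and 6.46% with the dimmest. By probe sets without a suffix letter 12 of 27 members reached it, 4 of 11 among chaperones, beside 11.7% of all genes with such a probe set. With the dimmest probe set median percentiles fell by more than 10 points, to 77.2 for all members, 56.9 for sensors and 78.9 for chaperones, as the median of all genes did, to 39.7. For degradation and amino acid response genes they moved by less. The pathway lists moved likewise with the dimmest probe set: to 58.7 for other signalling, 61.6 for other ER folding, 75.4 for other ER degradation, 80.1 for ER entry and export, 55.9 for other amino acid response, 64.4 for the list of tRNA synthetases and Xpot, 76.8 for cytosolic and 70.9 for mitochondrial chaperones. With the mean, other signalling moved to 70.5, other amino acid response to 68.9 and tRNA synthetases to 71.8. These falls follow in part from the construction, since both rules replace the brightest probe set. Signals moved by over 1.5 times for 14 of 32 members with the mean, 17 of 32 with the dimmest, and 4 of 27 (Xbp1, Ppp1r15b, Hyou1 and Canx) without suffix letters.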
